A study of Mus musculus with 3 samples.

Results

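A set of 7 prostanoid genes was followed across 3 droplet single-cell RNA libraries of mouse bone marrow: Ptgs1, Ptgs2, Ptgis, Ptges, Ptgds, Slco2a1 and Tbxa2r. They are 7 of the 27998 genes listed in the matrices, were picked by gene name, and all 7 were found. Their levels in these libraries were already known when they were picked, so every level and ratio below is a description. Each group had 1 library, so no test was run, no p-value exists, and intervals cover counting error only.

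The library of acute graft-versus-host disease (aGVHD) came from female CB6F1 mice that were irradiated, given marrow of B6.SJL donors carrying CD45.1, and given spleen cells of female C57BL/6 donors. The BMT (bone marrow transplantation) library came from female CB6F1 mice given the same irradiation and B6.SJL marrow, without the spleen cells. Both irradiated groups received 2 doses of 4.0 Gy, and marrow followed 4 hours later. Female CB6F1 mice without any treatment gave the WT library. The age of the mice, the number of mice behind each library, the sex of the marrow donors and the days to collection could not be read from the labels. BMT against WT sets irradiation and marrow transfer against none, and aGVHD against BMT sets added spleen cells against their absence. Both comparisons use the BMT library.

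Prostanoids are lipid signals made from arachidonic acid, which phospholipases release from membranes. Ptgs1 (cyclooxygenase 1, the constitutive form) and Ptgs2 (cyclooxygenase 2, the inducible form) turn it into prostaglandin H2. Terminal synthases then make one product each: Ptgis makes prostacyclin, Ptges makes prostaglandin E2, and Ptgds makes prostaglandin D2. Slco2a1 carries prostaglandins into cells, where they are broken down, and Tbxa2r is the receptor of thromboxane A2. In marrow, prostaglandin E2 is known for its effects on blood stem cells and bone formation, and platelets, the products of megakaryocytes, make thromboxane.

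Called cells numbered 5568 in aGVHD, 3621 in BMT and 7129 in WT, with median depths of 6977.5, 6932.0 and 7355.0 UMIs (unique molecular identifiers, each counting 1 captured RNA molecule). The sort had depleted CD45, lineage and CD71 stained cells, yet marker gates for blood cells held 31.2% of aGVHD, 30.2% of BMT and 14.6% of WT cells, against 34.9%, 50.8% and 62.4% in gates for non-haematopoietic cells. The remaining cells fitted no class or several. Where a class had at least 50 cells in a library, 3 to 8 of its own markers stood among its 10 leading genes. The gates had picked the cells by these same markers, so this is no independent check of what the cells are. Smaller classes were not checked this way, and tendon cells had a higher median of fibroblast marker UMIs than of their own, 43.0 against 41.0 in aGVHD, 218.5 against 207.0 in BMT and 187.0 against 131.0 in WT. Endothelial cells of aGVHD and WT were also led by Ccl21a, a chemokine gene of lymphatic vessels. Pairs of libraries shared 8 to 11 cell barcodes. Levels are given in CPM, the UMIs of a gene scaled to a class and library total of 1000000 UMIs, with exact Poisson 95% intervals. They are set beside the CPM of empty droplets, barcodes of at most 100 UMIs that hold free RNA. A difference was called when the gene had at least 50 UMIs over both libraries, at least a 2-fold ratio with an interval excluding 1, and at least 2 times the empty-droplet level of its library on the higher side. Only classes with at least 50 cells in both libraries were compared. The marker cutoff of the gates came from each library's own empty droplets, so it differed between libraries.

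**Figure D1:**
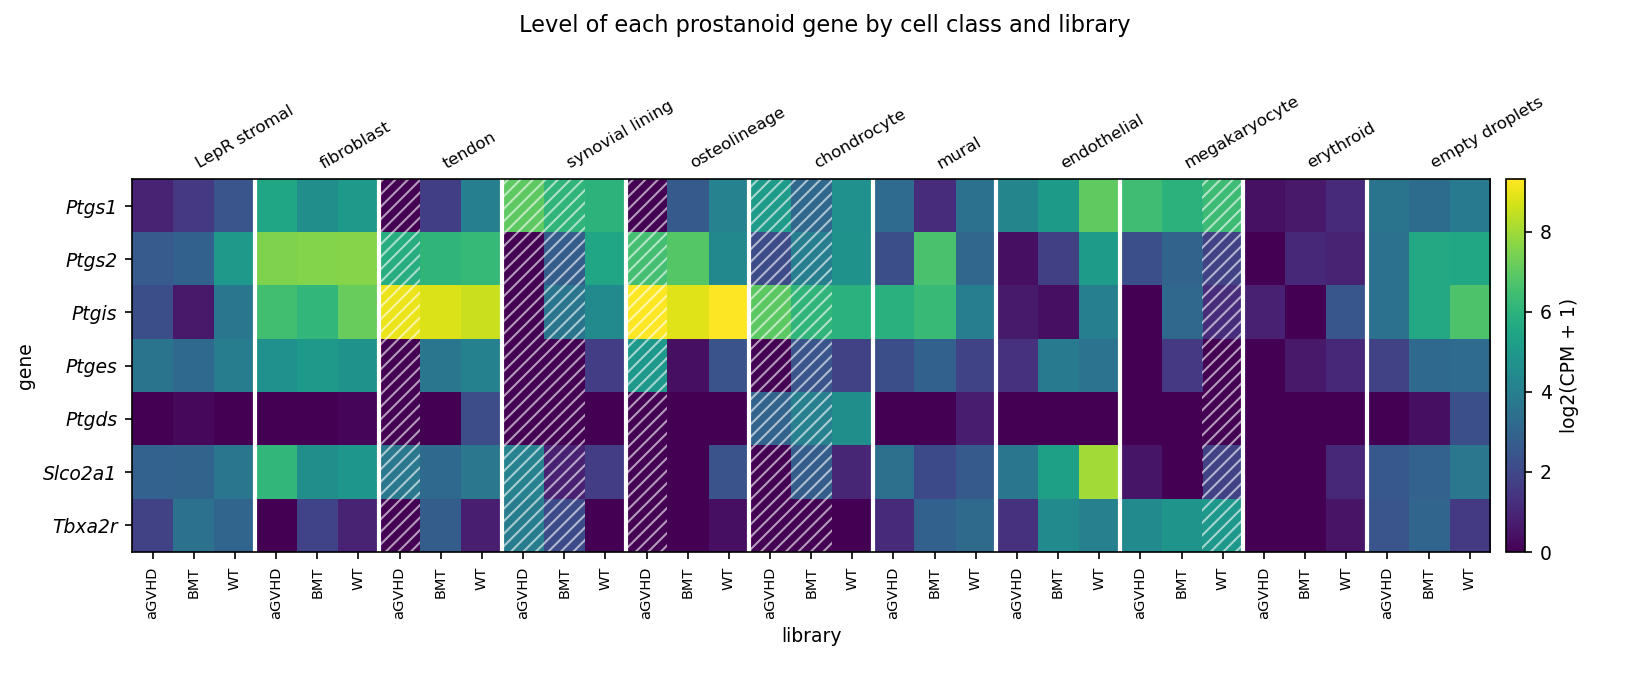
Level of each gene, as log2(CPM + 1), in 10 cell classes and in empty droplets (columns, each split into aGVHD, BMT and WT); hatched columns hold under 50 cells. Ptgis is brightest in tendon and osteolineage cells, Ptgs2 in fibroblasts, Slco2a1 in WT endothelial cells, and the erythroid columns are dark for every gene.

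The genes were spread over different cell types. Ptgis led in bone-forming and tendon cells, Slco2a1 in endothelial cells of BMT and WT, Ptgds in cartilage cells, and Tbxa2r in megakaryocytes and, in BMT and WT, endothelial cells. Among classes with at least 50 cells, Ptgs2 and Ptges led in fibroblasts. The 22 monocyte-macrophage cells of WT held 89 Ptgs2 UMIs among 328609 UMIs in all. That is a higher rate than in WT fibroblasts, with 2012 among 10312800 UMIs. Erythroid cells, which should lack most of these genes, served as a guide to background in cells. There, 0 to 2 UMIs of each gene were seen in the 564 aGVHD cells except for 5 UMIs of Ptgis, 0 to 2 in the 95 BMT cells, and 0 to 9 in the 483 WT cells except for 35 UMIs of Ptgis. The plot of levels by class gives all 7 genes side by side.

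Endothelial cells, which line blood vessels, held less Slco2a1 in aGVHD and BMT than in WT. Slco2a1 (ENSMUSG00000032548, GRCm38 chromosome 9, 102988712 to 103096002, plus strand) was at 11.6 CPM in aGVHD (95% interval 8.19 to 15.9), 37.7 CPM in BMT (31.4 to 45) and 260.2 CPM in WT (240.3 to 281.3). The counts behind these levels were 38 UMIs in 935 cells, 124 UMIs in 621 cells and 631 UMIs in 509 cells. Empty droplets of aGVHD, BMT and WT held 4.98, 6.66 and 12.0 CPM. The 3 intervals did not overlap, and each level was over 2 times its empty droplets. The share of endothelial cells with an Slco2a1 UMI was 2.03% in aGVHD (exact 95% interval 1.23 to 3.16), 6.92% in BMT (5.06 to 9.21) and 34.2% in WT (30.1 to 38.5). With every cell thinned to 1000 UMIs it was 0.535%, 1.93% and 14.7%. The same share in erythroid cells was 0% in aGVHD (upper 95% limit 0.652%), 0% in BMT (upper limit 3.81%) and 0.621% in WT. Median depth in endothelial cells was 2672, 4254 and 3775 UMIs, and in erythroid cells 9768, 20201 and 11793 UMIs.

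Slco2a1 fell in BMT over WT to a ratio of 0.145 (95% interval 0.119 to 0.176), 6.90-fold lower. In aGVHD over BMT the ratio was 0.307 (0.208 to 0.445), 3.26-fold lower. Both passed the size rule. Without the 3 cells richest in Slco2a1 in each library, an alternative chosen after seeing the data, the BMT over WT ratio was 0.117.

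Ptgs1 (ENSMUSG00000047250, chromosome 2, 36230426 to 36252272, plus strand) was lower in BMT than in WT over the endothelial class as a whole. Its level was 18.0 CPM in aGVHD (13.7 to 23.2), 32.5 CPM in BMT (26.7 to 39.3) and 129.5 CPM in WT (115.5 to 144.6), from 59, 107 and 314 UMIs. The aGVHD level was under 2 times the 11 CPM of its empty droplets, while the other 2 libraries stood at over 2 times theirs, which held 8.68 CPM in BMT and 13.7 CPM in WT. Its ratio was 0.251 for BMT over WT (0.20 to 0.314), which passed the size rule as 3.98-fold lower. The ratio of aGVHD over BMT was 0.552 (0.395 to 0.766), short of the 2-fold limit. It became a call with at least 4 markers per class, with clusters in place of gates, at a 1.5-fold limit, or without the progenitor list in the gates.

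Tbxa2r (ENSMUSG00000034881, chromosome 10, 81328731 to 81335172, plus strand) differed in the other comparison. It was at 1.52 CPM in aGVHD (0.494 to 3.55; 5 UMIs), 20.1 CPM in BMT (15.5 to 25.5; 66 UMIs) and 15.7 CPM in WT (11.1 to 21.5; 38 UMIs). BMT and WT overlapped, and aGVHD lay under both and under its empty droplets at 4.48 CPM. The ratio of aGVHD over BMT was 0.0759 (0.0238 to 0.186), a call at 13.2-fold lower. Without the 3 cells richest in Tbxa2r in each library it was 0.0363. The ratio of BMT over WT was 1.28 (0.847 to 1.96), which was not called.

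Ptges and Ptgs2 did not reach the empty-droplet limit of the size rule in these cells. Endothelial Ptges was at 1.52 CPM in aGVHD (5 UMIs), 13.1 CPM in BMT (43 UMIs) and 10.7 CPM in WT (26 UMIs), each under 2 times its empty droplets. Its ratio of aGVHD over BMT was 0.116 (0.0360 to 0.293), with under 50 UMIs in all. Endothelial Ptgs2 was at 2.43 CPM in BMT, against 33.8 CPM in WT, a ratio of 0.0719 (0.0301 to 0.149). Since 33.8 CPM is below the 45.4 CPM of WT empty droplets, this pair was not called, and 46 of the 82 WT UMIs came from 1 cell. Altogether 5 of the 7 genes had 50 UMIs for BMT over WT, and 2 were lower and 0 higher. Of all 8581 genes tested in that comparison, 2.0% were called lower and 3.03% higher. For aGVHD over BMT, 3 genes had 50 UMIs, and 2 were lower and 0 higher, against 1.94% called lower and 1.47% higher among 8661 genes. The median log2 ratio was -1.99 over the 5 genes and 0.01 over all tested genes for BMT over WT, and -1.70 over the 3 genes and -0.05 over all tested genes for aGVHD over BMT. These genes were chosen with the values known, so no inference is drawn from their counts. In the plot of all endothelial genes, 97 of 8581 genes had a lower BMT over WT ratio than Slco2a1, and 164 had a lower one than Ptgs1.

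**Figure D2:**
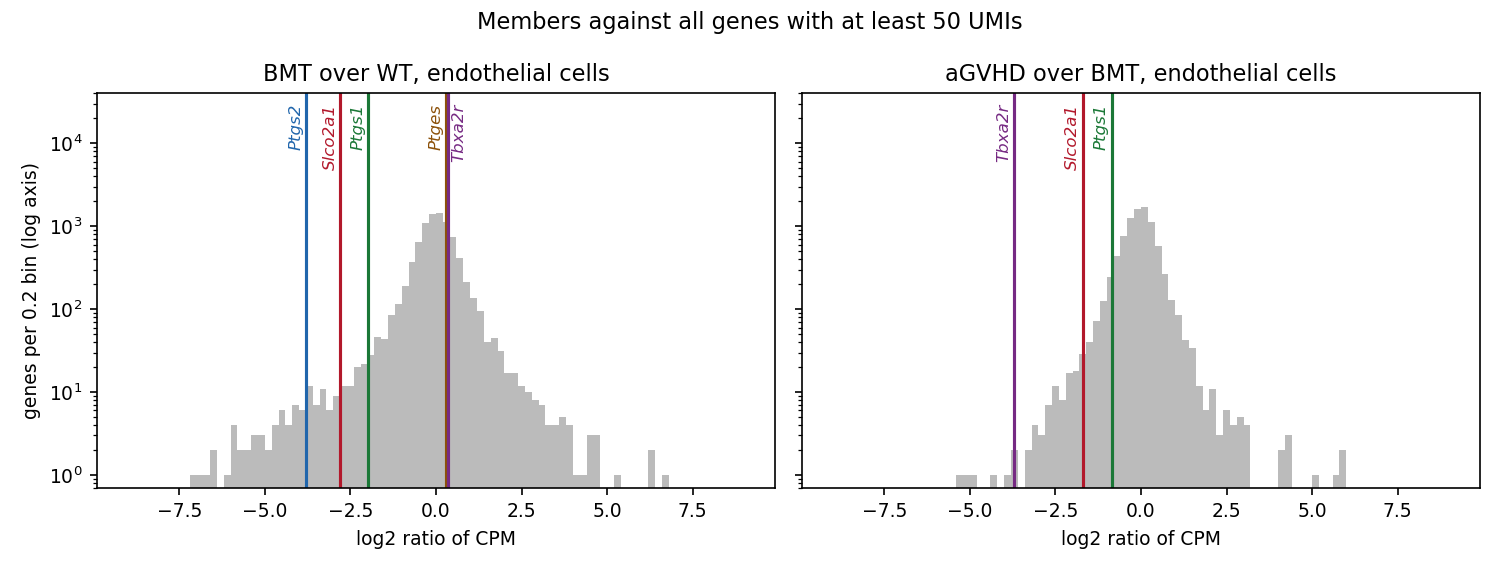
Histograms of the log2 CPM ratio of every gene with at least 50 UMIs in endothelial cells (vertical log axis, genes per bin), BMT over WT on the left and aGVHD over BMT on the right; genes with 0 UMIs in 1 library have no finite ratio and are not drawn. Lines mark the prostanoid genes: Slco2a1 at -2.79 and Ptgs1 at -1.99 on the left, Tbxa2r at -3.72 and Slco2a1 at -1.70 on the right.

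The shares of marker-defined subclasses in the endothelial class differed between libraries, and in WT Slco2a1 and Ptgs1 differed between subclasses. Subclasses were set by detected markers alone. Whether the shares reflect fewer cells of a vessel type or lower markers in the same cells was not tested. Cells with capillary markers (Gpihbp1, Cd300lg, Rgcc, Car4, Cd36) were 87.8% of the class in aGVHD, 77.8% in BMT and 36.0% in WT. Cells with venular markers (Selp, Ackr1, Vwf, Sele, Lrg1) were 0.428% in aGVHD, 1.45% in BMT and 22.8% in WT. Cells called sinusoidal had at least 2 of Stab2, Flt4, Stab1 and Mrc1, and more of these than of any other subclass list. A cluster of 88 cells led by Ccl21a also had Flt4 among its leading genes. Whether lymphatic cells were among those called sinusoidal was not tested. In WT, Slco2a1 was at 504.1 CPM in venular (453.2 to 559.1; 116 cells), 203.7 CPM in sinusoidal (136.4 to 292.6; 32 cells), 140.0 CPM in capillary (112.4 to 172.3; 183 cells) and 92.2 CPM in arterial cells (63.1 to 130.1; 75 cells). Venular cells lay above the rest, while sinusoidal and capillary intervals overlapped, as did capillary and arterial ones. Venular cells gave 358 of the 631 endothelial Slco2a1 UMIs of WT. WT Ptgs1 had the same leader, at 268.9 CPM in venular (232.1 to 309.9), 91.3 CPM in sinusoidal (48.6 to 156.2) and 73.9 CPM in capillary cells (54.3 to 98.3).

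The difference between BMT and WT was also present when only capillary cells were compared. Capillary Slco2a1 was at 3.02 CPM in aGVHD (8 UMIs), 14.4 CPM in BMT (9.95 to 20.3; 33 UMIs) and 140.0 CPM in WT (89 UMIs). The ratio of BMT over WT was 0.103 (0.0670 to 0.155), 9.69-fold lower and a call. Without the 3 capillary cells richest in Slco2a1 per library it was 0.0589. In aGVHD over BMT the ratio was 0.209 (0.0833 to 0.461), with 8 and 33 UMIs together under the minimum of 50. Capillary Ptgs1 was at 15.1 CPM in aGVHD, 14.9 CPM in BMT and 73.9 CPM in WT. Its ratio was 0.201 for BMT over WT (0.126 to 0.320), a call at 4.97-fold lower, and 1.01 for aGVHD over BMT (0.625 to 1.65). So 2 of the 3 genes with 50 UMIs were lower in capillary cells of BMT than of WT, where 2.19% of 6530 genes were called lower and 2.56% higher. With aGVHD over BMT, 0 of 1 gene with 50 UMIs was called, beside 1.61% of 7838 genes called higher and 2.05% lower. Capillary Tbxa2r was at 1.51 CPM in aGVHD, 18.8 CPM in BMT and 25.2 CPM in WT, from 4, 43 and 16 UMIs. In the few sinusoidal cells of aGVHD (16 cells) and BMT (31 cells), Slco2a1 was at 79.5 CPM (32.0 to 163.8) and 132.4 CPM (88.0 to 191.4), intervals that overlap that of WT. Sinusoidal Ptgs1 was not lower in BMT than in WT. It had 32 UMIs in the 31 BMT cells and 13 UMIs in 32 WT cells, which held 211435 and 142360 UMIs in all.

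**Figure D3:**
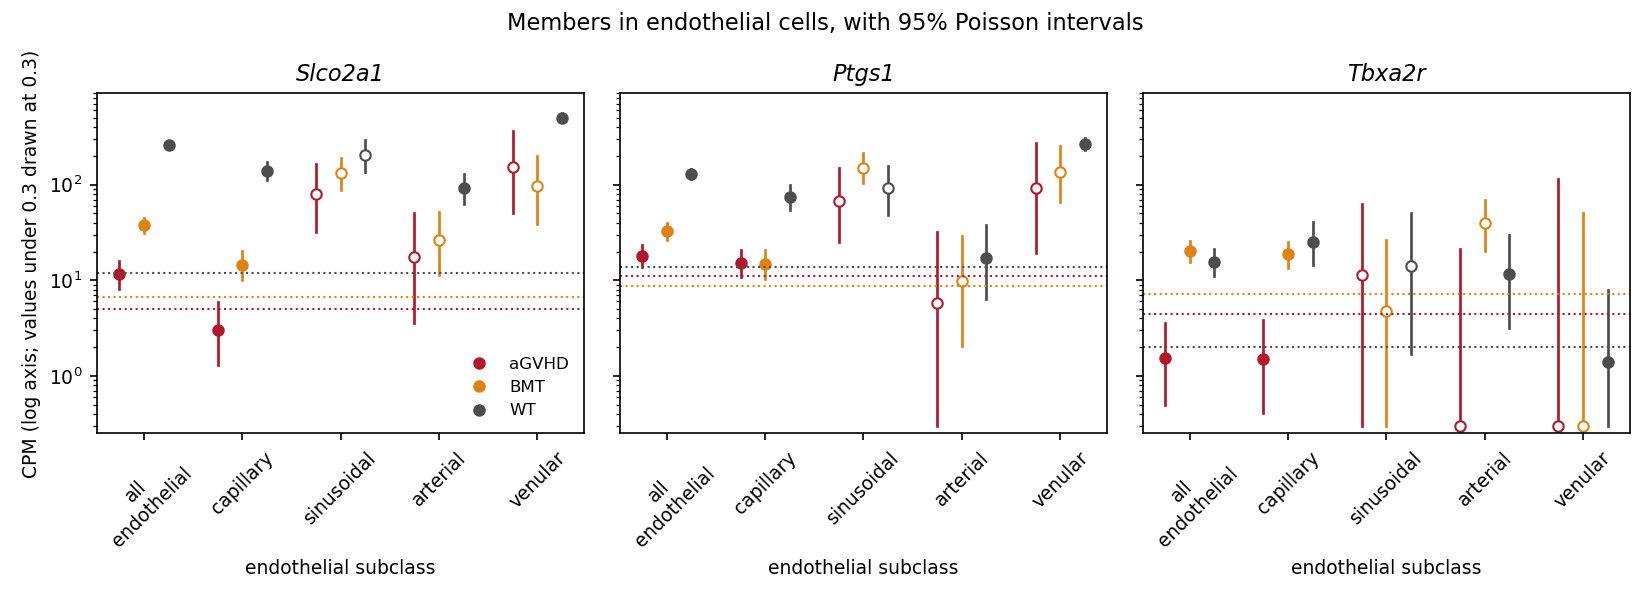
CPM (log axis) of Slco2a1, Ptgs1 and Tbxa2r in all endothelial cells and in 4 subclasses, with aGVHD, BMT and WT side by side; bars are 95% Poisson intervals, open points hold under 50 cells, and dotted lines are the empty droplets of each library. Capillary Slco2a1 stands at 3.02, 14.4 and 140.0 CPM in aGVHD, BMT and WT.

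Markers of other cells in the endothelial class were checked for each library. The 8 fibroblast markers summed to 23.8 CPM in aGVHD, 43.2 CPM in BMT and 1260 CPM in WT, with Cygb at 0 in aGVHD and BMT and no marker at 0 in WT. In WT they stood at 1442 CPM in endothelial cells with Slco2a1 and 1085 CPM in those without it. The 8 megakaryocyte markers summed to 151.3 CPM in aGVHD, 43.5 CPM in BMT and 47.0 CPM in WT, with Gp1bb among those at 0 in BMT and WT. In endothelial cells with Ptgs1 they stood at 372.9 CPM in aGVHD, 39.6 CPM in BMT and 74.7 CPM in WT. In those without it they stood at 130.8, 44.3 and 26.1 CPM. The part of these markers in the Slco2a1, Ptgs1 and Tbxa2r values was not tested.

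Slco2a1 and Ptgs1 were seen in the same endothelial cells more often than independent detection would give in BMT and WT. Both were found in 10 of 935 aGVHD cells, in 21 of 621 BMT cells and in 98 of 509 WT cells. Independent detection would give 4.71 such cells in BMT and 55.0 in WT. Cells carrying both were deeper, with medians of 7798, 10311 and 6364 UMIs, against 2629, 4013 and 2718 UMIs in cells with neither gene. Among capillary cells both genes were found in 2 of 821 aGVHD, 3 of 483 BMT and 9 of 183 WT cells. The parts of depth and of subclass in the overlap of the 2 genes were not tested. Because these 2 genes were the ones called lower together in BMT, the 250 bases before their RefSeq starts (GRCm38.p6) are printed. The RefSeq start used for Slco2a1 lies inside the gene span given above, which comes from GENCODE and begins upstream, at base 102988712. Slco2a1 is at chr9:103008237-103008486 and Ptgs1 at chr2:36230176-36230425, both on the plus strand, with capitals marking a GC box or a TATA box:
Slco2a1: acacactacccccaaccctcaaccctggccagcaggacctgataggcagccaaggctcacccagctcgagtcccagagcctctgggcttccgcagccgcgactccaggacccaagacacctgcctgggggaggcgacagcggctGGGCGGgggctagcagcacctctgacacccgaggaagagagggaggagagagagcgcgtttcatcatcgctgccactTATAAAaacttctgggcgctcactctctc
Ptgs1: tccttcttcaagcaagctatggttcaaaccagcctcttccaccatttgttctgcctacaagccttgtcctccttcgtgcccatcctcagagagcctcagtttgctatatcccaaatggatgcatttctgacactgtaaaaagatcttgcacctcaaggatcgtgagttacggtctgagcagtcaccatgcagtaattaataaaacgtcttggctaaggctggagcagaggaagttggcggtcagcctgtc

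A set of 5 motifs was searched on both strands over 300 bases, the 250 before the start and the 50 from it on. They were the GC box GGGCGG (in 35.7% of 32851 mouse promoters of that length), the TATA box TATAAA (13.6%), the cyclic AMP response element core TGACGT (7.51%), the E-box CACGTG (7.15%) and the C/EBP palindrome TTGCGCAA (0.183%). Slco2a1 held GGGCGG from base 106 to 101 before its start and TATAAA from base 29 to 24 before it. Ptgs1 held none of the 5. The Slco2a1 window had a GC content of 63.2% and the Ptgs1 window 48.0%. RefSeq windows were at hand for 6 of the 7 genes, and Ptgis was the other one.

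Ptgs2 (ENSMUSG00000032487, chromosome 1, 150100031 to 150108227, plus strand) was highest in fibroblasts of all 3 libraries among classes with at least 50 cells. Its level there was 181.8 CPM in aGVHD (163.8 to 201.2), 191.1 CPM in BMT (176.8 to 206.4) and 195.1 CPM in WT (186.7 to 203.8). All 3 intervals overlapped, and empty droplets held 9.96, 47.5 and 45.4 CPM. The ratio was 0.951 for aGVHD over BMT (0.835 to 1.08) and 0.980 for BMT over WT (0.896 to 1.07). A Ptgs2 UMI was found in 22.1% of 340 aGVHD, 30.2% of 265 BMT and 27.4% of 1184 WT fibroblasts, and in 9.71%, 10.9% and 10.6% after thinning to 1000 UMIs. The erythroid shares were 0%, 2.11% and 1.24%. Fibroblast Ptgs2 was uneven among cells. At least 10 UMIs were held by 9, 19 and 56 fibroblasts of aGVHD, BMT and WT, and the richest cell of each library held 46, 49 and 84 UMIs.

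**Figure D4:**
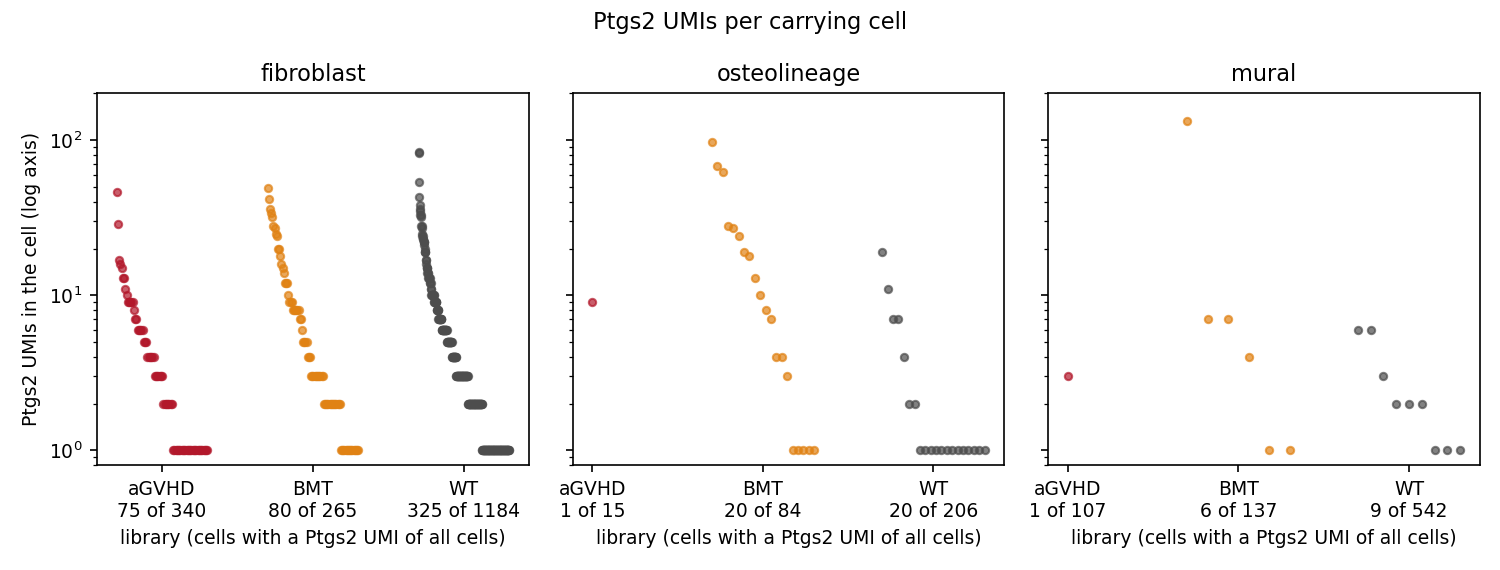
Ptgs2 UMIs (log axis) in each cell that carried at least 1, for fibroblast, osteolineage and mural cells of aGVHD, BMT and WT; labels give carrying cells of all cells. The richest fibroblasts hold 46, 49 and 84 UMIs in aGVHD, BMT and WT, while a single mural cell of BMT holds 133 UMIs.

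Osteolineage cells, which form bone, held more Ptgs2 in BMT than in WT. BMT had 115.0 CPM (104.0 to 126.9; 398 UMIs in 84 cells) and WT had 19.3 CPM (65 UMIs in 206 cells). The ratio was 5.95 (4.56 to 7.85), which passed the size rule. It was the only gene called of 3 with 50 UMIs, beside 0.422% of 7350 genes called higher and 0.803% lower. The UMIs sat in 20 BMT cells and 20 WT cells, and 3 BMT cells held 228 of the 398 UMIs. Without the 3 richest cells of each library the ratio was still 5.95, but the BMT level was then under 2 times its empty droplets and the call was lost. Median depth was 41564 UMIs in BMT and 13780 UMIs in WT. Osteolineage cells of aGVHD numbered 15, and 1 of them held all 9 of their Ptgs2 UMIs. The 8 fibroblast markers summed to 5814 CPM in BMT and 6853 CPM in WT osteolineage cells. In BMT they stood at 4611 CPM in cells with Ptgs2 and 6306 CPM in cells without it, with Clec3b at 0.

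Mural cells, the muscle cells and pericytes around vessels, gave a call that rested on 1 cell. Mural Ptgs2 was at 3.66 CPM in aGVHD (3 UMIs), 98.8 CPM in BMT (83.8 to 115.8; 153 UMIs) and 7.40 CPM in WT (24 UMIs). The ratio was 13.4 for BMT over WT (8.65 to 21.5) and 0.0370 for aGVHD over BMT (0.00755 to 0.110). Of the 153 UMIs in BMT, 133 came from a single cell of 13624 UMIs that carried 30 mural and 107 fibroblast marker UMIs. Without the 3 richest cells of each library the BMT over WT ratio was 1.43 (0.419 to 4.50), and neither ratio was called. These calls stood beside 1.88% of 8137 genes called higher and 2.36% lower for BMT over WT, and 3.36% of 5834 genes called lower and 0.463% higher for aGVHD over BMT. Both comparisons had 2 genes with 50 UMIs here, Ptgs2 and Ptgis. The smooth muscle cells among them held all 3 aGVHD UMIs, all 153 BMT UMIs and 11 of the WT UMIs of Ptgs2, and their Ptgs2 was likewise called higher for BMT over WT (2.47% of 7058 genes called higher, 3.34% lower) and lower for aGVHD over BMT (0.553% of 5241 genes higher, 3.55% lower).

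The promoter window of Ptgs2 is printed because the gene was called in these 2 cell types. The 250 bases lie at chr1:150099781-150100030 on the plus strand (GRCm38.p6), with the GC box and the C/EBP palindrome in capitals:
Ptgs2: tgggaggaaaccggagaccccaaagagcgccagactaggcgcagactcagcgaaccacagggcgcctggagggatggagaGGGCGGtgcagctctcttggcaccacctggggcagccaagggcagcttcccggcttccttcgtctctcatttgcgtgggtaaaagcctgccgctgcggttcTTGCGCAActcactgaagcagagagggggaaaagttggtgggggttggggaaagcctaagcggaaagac
GGGCGG lay from base 170 to 165 and TTGCGCAA from base 69 to 62 before the start. In the first 50 bases from the start on, which are not printed, TGACGT lay on the minus strand at bases 13 to 18 and CACGTG at bases 17 to 22, overlapping it. Of the 7 windows of the 6 genes searched, TTGCGCAA, TGACGT and CACGTG were in that of Ptgs2 alone.

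Ptgis (ENSMUSG00000017969, chromosome 2, 167191805 to 167240604, minus strand) was highest in osteolineage and tendon cells. Osteolineage Ptgis was at 631.3 CPM in aGVHD (485.1 to 807.8; 15 cells), 463.3 CPM in BMT (440.9 to 486.6; 84 cells) and 622.7 CPM in WT (596.3 to 650.0; 206 cells). Tendon Ptgis was at 527.0 CPM in aGVHD (421.5 to 650.8; 46 cells), 451.5 CPM in BMT (408.0 to 498.4; 82 cells) and 375.2 CPM in WT (352.7 to 398.8; 289 cells). Empty droplets held 9.96, 48.3 and 103.6 CPM. For BMT over WT the ratio was 0.744 in osteolineage (0.697 to 0.794) and 1.20 in tendon cells (1.07 to 1.35), so both differed by less than 2-fold. In tendon cells 0 of the 3 genes with 50 UMIs were called, beside 1.52% higher and 1.5% lower of 6860 genes. Most osteolineage cells carried Ptgis, 14 of 15 aGVHD, 81 of 84 BMT and 191 of 206 WT cells. The 20 BMT osteolineage cells with Ptgs2 all carried Ptgis too, as did 19 of the 20 in WT.

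In fibroblasts Ptgis was at 89.4 CPM in aGVHD (76.9 to 103.4), 69.8 CPM in BMT (61.2 to 79.2) and 138.8 CPM in WT (131.7 to 146.1). The BMT and WT values were under 2 times their empty droplets, and the ratio of 0.503 (0.437 to 0.577) was also 1.99-fold, so it was not called. In mural cells Ptgis was at 58.5 CPM in aGVHD, 78.2 CPM in BMT and 14.8 CPM in WT. Its ratio for BMT over WT was 5.28 (3.75 to 7.54) and missed the empty-droplet limit. The 8 osteolineage markers in mural cells summed to 50 CPM in aGVHD, 815.2 CPM in BMT and 358.6 CPM in WT, with Bglap, Bglap2, Ibsp and Phex at 0 in aGVHD. They stood at 2225 CPM in the BMT mural cells with Ptgis and 137.7 CPM in those without it. Their part in the mural Ptgis values was not tested.

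Ptges (ENSMUSG00000050737, chromosome 2, 30889471 to 30929863, minus strand) was highest in fibroblasts among main classes with at least 50 cells, at 24.9 CPM in aGVHD (18.6 to 32.8), 31.4 CPM in BMT (25.7 to 37.9) and 26.6 CPM in WT (23.5 to 29.9). The intervals overlapped, with ratios of 0.795 for aGVHD over BMT (0.558 to 1.12) and 1.18 for BMT over WT (0.935 to 1.48). Stromal cells marked by Lepr, the chief source of Cxcl12 in marrow, held 11.1 CPM of Ptges in aGVHD, 7.98 CPM in BMT and 14.4 CPM in WT. In these cells 0 genes were called in either comparison, of 4 with 50 UMIs for aGVHD over BMT and 5 for BMT over WT. The shares of all genes called there were 1.31% higher and 3.78% lower for aGVHD over BMT, and 2.81% higher and 0.823% lower for BMT over WT. Tbxa2r in these cells was at 2.60 CPM in aGVHD, 10 CPM in BMT and 7.29 CPM in WT, a ratio of 0.260 for aGVHD over BMT (0.129 to 0.482) that was not called because BMT stood under 2 times its empty droplets.

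Fibroblasts held more Slco2a1 in aGVHD than in BMT. Fibroblast Slco2a1 was at 69.9 CPM in aGVHD (58.9 to 82.3; 143 UMIs), 23.2 CPM in BMT (18.3 to 28.9; 79 UMIs) and 28.6 CPM in WT (25.4 to 32.1; 295 UMIs). BMT and WT overlapped, and aGVHD lay above both. The ratio of aGVHD over BMT was 3.02 (2.28 to 4.02), opposite to the 0.307 of endothelial cells; the difference between the 2 classes was not tested. Mural Slco2a1 was at 9.75 CPM in aGVHD, against 3.23 CPM in BMT, a like ratio of 3.02 (0.871 to 11.7) from 8 and 5 UMIs, too few for a call. The share of fibroblasts with an Slco2a1 UMI was 16.2% in aGVHD, 14.0% in BMT and 15.5% in WT, at median depths of 4834, 11933 and 8172 UMIs. After thinning to 1000 UMIs it was 2.94%, 1.13% and 2.96%. The highest aGVHD cell held 12 UMIs, 8.39% of the total. The 8 endothelial markers summed to 67.0 CPM in aGVHD fibroblasts, 63.0 CPM in BMT and 21.6 CPM in WT, with none at 0. In fibroblasts with Slco2a1 they stood at 75.8 CPM in aGVHD, 115.6 CPM in BMT and 31.8 CPM in WT. In those without it they stood at 64.0, 53.2 and 19.3 CPM. Their part in the fibroblast Slco2a1 values was not tested.

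Fibroblast Ptgs1 was at 45 CPM in aGVHD (36.2 to 55.1), 23.2 CPM in BMT (18.3 to 28.9) and 30.7 CPM in WT (27.4 to 34.3). Its ratio of 1.94 for aGVHD over BMT (1.42 to 2.66) fell just short of 2-fold and was called under 8 of the 13 alternatives. The 6 synovial lining markers summed to 1957 CPM in aGVHD fibroblasts, 1370 CPM in BMT and 1554 CPM in WT, with none at 0. In aGVHD they stood at 3164 CPM in fibroblasts with Ptgs1 and 1698 CPM in those without it. Their part in the fibroblast Ptgs1 values was not tested. Of 5 genes with 50 UMIs in fibroblasts, 1 was higher and 0 lower for aGVHD over BMT, and 0 were called for BMT over WT. The shares of all genes called were 1.11% higher and 2.69% lower of 8503 for aGVHD over BMT, and 1.15% higher and 1.07% lower of 10404 for BMT over WT.

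Ptgs1 was also high in megakaryocytes and synovial lining cells. Megakaryocyte Ptgs1 was at 86.1 CPM in aGVHD (74.6 to 98.9; 206 cells), 62.4 CPM in BMT (48.2 to 79.6; 70 cells) and 81.2 CPM in WT (62.5 to 103.7; 38 cells), intervals that overlap. Its share of carrying cells was 47.6%, 45.7% and 63.2%. The ratio was 1.38 for aGVHD over BMT (1.04 to 1.85). Megakaryocyte Tbxa2r was at 20.1 CPM in aGVHD (14.8 to 26.8), 26.9 CPM in BMT (17.9 to 38.9) and 30.4 CPM in WT (19.5 to 45.3), a ratio of 0.749 for aGVHD over BMT (0.459 to 1.24). Neither of these 2 genes was called, beside 0.760% of 5660 genes called higher and 1.73% lower. In aGVHD megakaryocytes 26 of the 33 cells with Tbxa2r also carried Ptgs1. Synovial lining cells, which line joints, held Ptgs1 at 125.8 CPM in aGVHD (94.2 to 164.5; 23 cells), 67.6 CPM in BMT (53.9 to 83.7; 48 cells) and 64.2 CPM in WT (54.1 to 75.6; 143 cells). The aGVHD interval lay above the others, but that class was too small in 2 libraries to be compared.

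Ptgds (ENSMUSG00000015090, chromosome 2, 25466709 to 25470046, minus strand) was highest in cartilage cells of each library, with skeletal muscle cells at a like level in WT. Chondrocyte Ptgds was at 6.72 CPM in aGVHD (0.814 to 24.3; 2 UMIs in 46 cells), 15.8 CPM in BMT (8.62 to 26.4; 14 UMIs in 38 cells) and 24.1 CPM in WT (20.8 to 27.7; 191 UMIs in 491 cells). In WT 137 chondrocytes carried it, a share of 27.9%, while in BMT 8 of the 14 UMIs sat in 1 cell. Skeletal muscle cells of WT held 23.6 CPM (11.3 to 43.4; 71 cells). Endothelial cells and fibroblasts of aGVHD and BMT held 0 UMIs of Ptgds. Ptgds never reached 50 UMIs in a compared class.

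None of the 7 genes was called in a blood cell class. In neutrophils Ptgs2 was at 5.75 CPM in aGVHD, 35.9 CPM in BMT and 27.5 CPM in WT, under its empty droplets in each. For aGVHD over BMT, 0 of 2 genes with 50 UMIs were called in neutrophils, beside 0.867% of genes called higher and 4.41% lower, and for BMT over WT 0 of 1, beside 7.91% and 1.69%. No gene of the 7 had 50 UMIs in erythroid cells, where 4.93% of all genes were called higher and 17.4% lower for aGVHD over BMT, and 7.64% higher and 4.47% lower for BMT over WT. The same held in B cells for BMT over WT, beside 6.14% higher and 2.92% lower. B cell Tbxa2r was at 19.1 CPM in BMT (21 UMIs), against 5.82 CPM in WT (9 UMIs), a ratio of 3.28 (1.44 to 8.12) that is called only when no minimum of UMIs is set. In aGVHD, the 130 basophil and mast cells held Ptgs2 at 52.4 CPM (41.2 to 65.7), with 24 carrying cells.

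The other genes of the pathway, 26 genes from phospholipases to receptors, were read in the same classes. This list too was drawn up with earlier results known. In endothelial cells 9 of the 26 had 50 UMIs, and 1 was higher and 0 lower in BMT over WT, with a median log2 ratio of -0.01. Mgll, which frees arachidonic acid from a lipid, was at 486.0 CPM in aGVHD, 714.2 CPM in BMT and 275.0 CPM in WT. Its ratio for BMT over WT was 2.60 (2.38 to 2.83). Within capillary cells that ratio was 1.83 (1.62 to 2.06) and was not called. In aGVHD over BMT, 0 of 9 were called in endothelial cells, with a median of -0.08.

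In fibroblasts 19 of the 26 had 50 UMIs for BMT over WT, of which 2 were lower and 0 higher, with a median log2 ratio of -0.03. Pla2g2e, a secreted phospholipase, was at 2.35 CPM in BMT, against 13.2 CPM in WT, a ratio of 0.178 (0.0753 to 0.360). Ptgfr, the prostaglandin F receptor, was at 14.7 CPM in BMT, against 29.6 CPM in WT, a ratio of 0.496 (0.360 to 0.670). With aGVHD set over BMT, 1 of 15 was higher and 0 lower, with a median of -0.34. This was Pla2g5, another secreted phospholipase, at 44.0 CPM in aGVHD, against 6.45 CPM in BMT, a ratio of 6.82 (4.24 to 11.4). In mural cells Ptger3, a prostaglandin E receptor, was at 16.8 CPM in BMT, against 8.02 CPM in WT, a called ratio of 2.09 (1.17 to 3.75). Mural Ptgir, the prostacyclin receptor, was at 7.75 CPM in BMT, against 16.3 CPM in WT, a called ratio of 0.474 (0.231 to 0.899). In megakaryocytes Ptger3 was at 43.3 CPM in aGVHD, against 17.3 CPM in BMT, a called ratio of 2.50 (1.51 to 4.39), while Tbxas1, the thromboxane synthase, was at 98.1 CPM in aGVHD, against 72.0 CPM in BMT, a ratio of 1.36 (1.05 to 1.79) that was not called. Hpgd, the main enzyme of prostaglandin breakdown, was at 375.8 CPM in BMT, against 287.8 CPM in WT osteolineage cells, where 0 of 9 pathway genes were called. Outside these classes, Ptges3, a cytosolic prostaglandin E synthase and chaperone partner, was called in erythroid cells, at 111.7 CPM in aGVHD, 384.8 CPM in BMT and 168.1 CPM in WT. Its ratio there was 0.290 for aGVHD over BMT (0.261 to 0.323) and 2.29 for BMT over WT (2.08 to 2.51), beside all-gene median log2 ratios of -1.17 and 0.55. B cells held Ptges3 at 117.2 CPM in BMT, against 285.4 CPM in WT, a called ratio of 0.411 (0.335 to 0.501). Erythroid Mgll was at 30.3 CPM in BMT, against 61.4 CPM in WT, a called ratio of 0.493 (0.366 to 0.653), opposite to endothelial cells; the difference between the classes was not tested.

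Genes with the most similar layout were sought over 34 class sums of the 3 libraries, by Pearson correlation of log2(CPM + 10) among 10290 genes. The sums share library, depth and free RNA, so these values are descriptions. Ptgis was most like Omd, Tmem119 and Cthrc1 (r of 0.92 each), and Ptges was most like Rnase4 (0.87), Dkk2 (0.84) and Sulf2 (0.84). Slco2a1 was most like Meox1 (0.82), Fam171a2 (0.82) and Npr1 (0.80), and Ptgs2 most like Smoc2 (0.80), Clip4 (0.78) and Ugdh (0.78). Ptgs1 was nearest to Atox1 (0.78), Layn (0.76) and Gchfr (0.71), and Tbxa2r to Arhgap18 (0.77), Slc24a5 (0.76) and Dedd (0.72). Ptgds, with 218 UMIs in all, was nearest to the muscle gene Tnni2 (0.93), Capn6 (0.88) and Kcna6 (0.79). Among the 7 genes themselves, the highest values were 0.69 for Ptges and Slco2a1, 0.67 for Ptgs2 and Ptgis, and 0.65 for Ptgs2 and Ptges, while Ptgs1 and Slco2a1 had 0.50.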

How the data were processed

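The deposited files hold raw, unscaled UMI counts for each barcode and gene. Per the file headers, the authors' matrices were written by Cell Ranger 3.1.0, and per the submitters' processing notes mm10 and Seurat were used. Library totals were 67439098 UMIs for aGVHD, 44219063 for BMT and 86575425 for WT. Whether counting used strand is not given in the sources used here. In GENCODE, genes on the opposite strand overlap Ptgs1, Ptgis and Slco2a1, and small genes on the same strand overlap Ptges and Slco2a1. Of these overlapping genes only Gm14291, opposite to Ptgis, is listed in the matrices. Whether reads of overlapping genes were counted for the members was not tested. Cells needed at least 1000 UMIs, 500 genes and under 10% mitochondrial UMIs. A cell joined a class with at least 3 of its markers detected and a clear margin over other classes. Its summed markers also had to reach 3 times the free-RNA expectation, taken from the empty droplets of the same library. Fibroblast markers summed to 838.4 CPM in empty droplets of aGVHD, 2713 CPM in BMT and 6699 CPM in WT. Endothelial markers summed to 554.4, 901.0 and 268.9 CPM there. The part of these unequal cutoffs in the differences between libraries was not tested. Doublets were kept and removed in an alternative. UMIs were summed per class and library (numpy 2.4.6, scipy 1.17.1), with exact Poisson, Clopper-Pearson and conditional intervals. Alternatives used scanpy 1.11.5. The named genes were all 7, pathway genes past the size rule in classes where these are described, and the 3 most similar genes of each. Tbxas1, Hpgd and Ptges3, and Mgll in erythroid cells, fall outside that rule and were named after their values were seen. Genes, lists and markers were chosen with earlier results of these data known.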

Additional observations from a re-analysis of the deposited data

Results flagged for a closer look

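Slco2a1 went opposite ways in 2 cell classes of the same comparison. For aGVHD over BMT its ratio was 0.307 in endothelial cells and 3.02 in fibroblasts. Each ratio rests on 1 library per group, and the difference between the classes was not tested.
Of the other pathway genes, 2 went opposite ways in BMT over WT. Mgll had a ratio of 2.60 in endothelial and 0.493 in erythroid cells, and Ptges3 had 0.411 in B and 2.29 in erythroid cells. These differences were not tested either.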

How the results depend on the processing

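No paired analysis was possible because each group had 1 library, and for the same reason no replicate could be left out. The 4 calls for BMT over WT and the 4 for aGVHD over BMT were recomputed under 13 other settings, 2 of them chosen after seeing the data (the progenitor list left out of the gates, and the 3 cells richest in each gene left out). For BMT over WT the count of calls was 3 to 5 except without the 3 cells richest in each gene, where it was 2: both Ptgs2 calls were lost. The additions were Ptgs1 in neutrophils (lower, Leiden clusters) and Tbxa2r in B cells (higher, no UMI minimum). For aGVHD over BMT it was 4 to 6, the additions being Ptgs1 in endothelial cells and fibroblasts. The endothelial calls of Slco2a1, Ptgs1 and Tbxa2r and the fibroblast call of Slco2a1 were kept under all 13. Mural Ptgs2 in BMT over WT reversed with Leiden clusters in place of gates, to a ratio of 0 in all mural cells and 0 in smooth muscle cells, since the BMT clusters held no Ptgs2 UMI. Both mural Ptgs2 calls were lost there, without the 3 richest cells, and when scaling left out haemoglobin, mitochondrial and ribosomal genes. Under that scaling both ratios stayed inside their counting intervals, so the empty-droplet limit was the part of the rule that was missed. As reported, mural Ptgs2 of BMT was at 98.8 CPM, close to 2 times the 47.5 CPM of its empty droplets. Of 498 recomputed ratios of single genes, 456 lay inside the counting interval, 40 outside it and 2 reversed. The median log2 ratio of all genes, which median-of-ratios scaling removes, lay between -0.25 and 0.13 in every compared class but erythroid cells (-1.17 for aGVHD over BMT, 0.55 for BMT over WT), and that scaling ended none of the calls. All 43 shares of cells moved when cells were thinned to 1000 UMIs, since removing UMIs can only lower detection. Counts under 50 UMIs limit Ptgds, and free RNA limits Ptgis and Ptgs2 in BMT and WT.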

Other observations

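Cells that fitted no class held much of the Ptgs2 of WT. In these cells Ptgs2 was at 3.71 CPM in aGVHD, 23.5 CPM in BMT and 171.4 CPM in WT, from 75, 90 and 1726 UMIs. The 8 fibroblast markers summed to 104.2 CPM in them in aGVHD, 945.1 CPM in BMT and 10662 CPM in WT. In WT they gave 32.6% of all Ptgs2 UMIs found in cells, and gated fibroblasts 38.0%. In the same WT cells Ptges was at 20.5 CPM, against 8.65 CPM in empty droplets, and Slco2a1 at 23.4 CPM, against 12.0 CPM.

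Cells of BMT called sinusoidal by their markers, 31 in number, held Ptges at 75.7 CPM (43.3 to 122.9) in 9 carrying cells, and Ptgs1 at 151.3 CPM (103.5 to 213.7) in 19. In aGVHD, where 16 such cells were found, Ptges had 2 UMIs and Ptgs1 6. The 32 such cells of WT held 3 UMIs of Ptges and 13 of Ptgs1. All genes together had 88057 UMIs in these cells of aGVHD, 211435 in BMT and 142360 in WT.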
